A study of Mus musculus with 6 samples.

Results

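Matrix metalloproteinases and their tissue inhibitors (TIMPs) were measured as transcripts in 4T1 and 4TO7, which are mouse mammary carcinoma cell lines. The genes described form a panel of 10 chosen by gene symbol: the metalloproteinases Mmp2, Mmp3, Mmp9, Mmp10, Mmp13, Mmp14 and Mmp15, and the inhibitors Timp1, Timp2 and Timp3. All 10 were found among the 47729 genes of the deposited table. Of these, 9 reached the level required for testing, at least 10 normalised counts in at least 3 of the 6 libraries, and Timp3 did not.

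Matrix metalloproteinases are zinc-dependent endopeptidases that cut collagens, laminins, proteoglycans and many cell-surface proteins. Most are secreted as inactive proenzymes that other proteases activate, a few are anchored in the plasma membrane, and TIMPs block the active site of the mature enzymes. In mammary tissue they remodel the matrix during branching and involution, and in mammary tumours both carcinoma cells and stromal cells make them. Transcript levels do not measure secretion, activation or inhibition of the proteins.

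RNA was sequenced from 3 libraries of 4T1 cells and 3 libraries of 4TO7 cells. Both groups were untreated cultures in serum-supplemented DMEM, and the labels trace both lines to spontaneous tumours in the mouse strain BALB/c. It is textbook knowledge that 4T1 cells form metastases in lung and other organs, whereas 4TO7 cells leave the primary tumour but seldom form visible metastases. Each group is 1 established line, so a difference between the groups is a difference between these lines. The labels do not say whether the libraries of a line came from independent cultures. The p-values therefore set the difference between the lines only against the spread among these libraries, and that spread may be technical. Values are normalised read counts unless stated, folds are ratios of line means, and log2 fold changes are 4T1 minus 4TO7 on the log2(value + 1) scale. This scale understates the change of genes with few reads. In bulk RNA, fewer cells that express a gene and less RNA of it per cell cannot be told apart.

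Sequencing depth was 33605566 to 39072639 gene-assigned reads per library. Across genes, the log2 values of any pair of 4T1 libraries correlated at 0.988 to 0.99, those of any pair of 4TO7 libraries at 0.978 to 0.993, and those of libraries from different lines at 0.809 to 0.848. In the 4TO7 line, replicate 2 stood apart from replicates 1 and 3, which correlated at 0.993. Results are therefore given with all libraries and also without 4TO7 replicate 2 where that changed a call or moved a value by more than 1.5 times. All 6 epithelial markers examined were higher in 4T1 cells, where their summed level was 184479 to 206994 normalised counts, against 25835 to 42469.9 in 4TO7 cells. By the test given below, 25.1% of all tested genes were higher in 4T1 cells and 23.9% in 4TO7 cells. The 4TO7 cells carried the keratins Krt8 (21578 ± 3811, SD, n = 3) and Krt18 (13535 ± 4763). The other keratins examined were low in 4TO7 cells, Krt7 at 13.6 ± 4.66 and Krt19 at 1.29 ± 1.12. In that line Epcam, a defining epithelial surface marker, averaged 23.7 ± 9.25. Cdh1 averaged 170 ± 44.6 in 4TO7 cells, against 19351.5 ± 2121.3 in 4T1 cells.

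Of the 9 tested members, 3 were higher in 4T1 cells (Mmp9, Mmp10 and Mmp13), 3 were higher in 4TO7 cells (Mmp2, Mmp3 and Timp2) and 3 were not called (Mmp14, Mmp15 and Timp1). The threshold was an adjusted p under 0.05 by limma, with Benjamini-Hochberg adjustment over all 14276 tested genes. Across all tested genes, 49.0% were called, 25.1% higher in 4T1 and 23.9% higher in 4TO7, so a large share of any gene list passes in this comparison. The libraries of the lines did not overlap for 6 of the 9 tested members, against 58.4% of all tested genes. The median log2 fold change of the tested members was -0.19, beside 0.03 for all tested genes. Without 4TO7 replicate 2, 3 members were higher in 4T1 and 4 in 4TO7, when 56.5% of all tested genes were called.

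**Figure D1:**
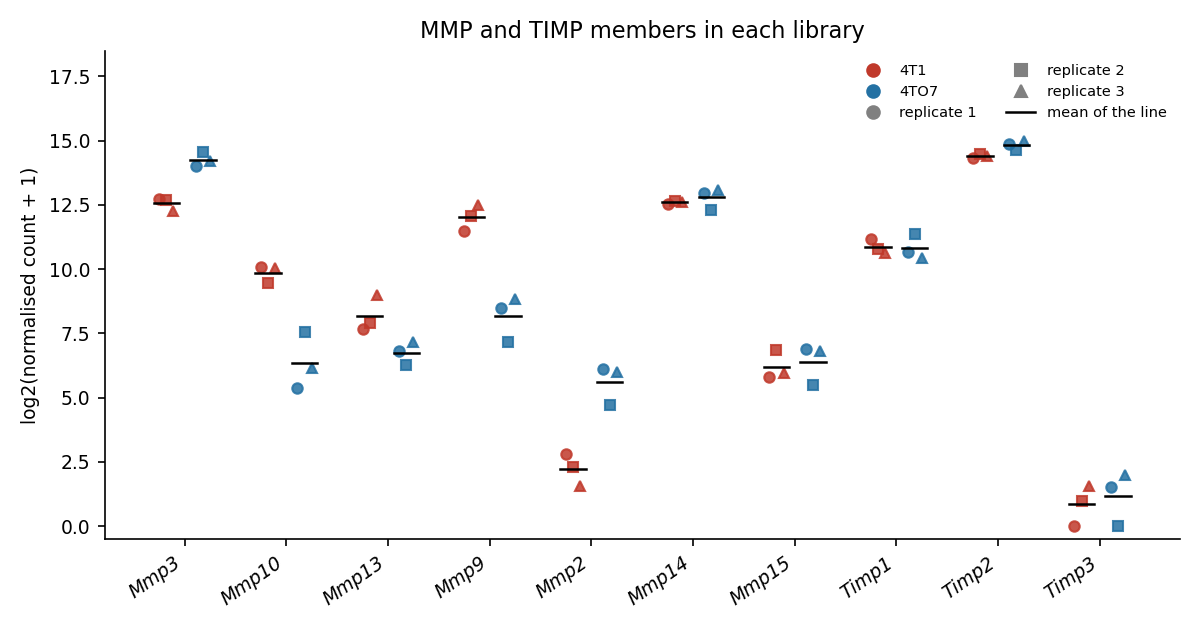
Each point is 1 library, with 4T1 left of 4TO7 for each gene and the black bar at the mean log2 value of the line. The vertical axis is log2(normalised count + 1). The 3 4T1 libraries lie above all 4TO7 libraries for Mmp9, Mmp10 and Mmp13 and below them for Mmp2, Mmp3 and Timp2, and Timp3 lies near 0 in both lines.

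The stromelysins Mmp3 and Mmp10 differed in opposite directions. Mmp3, which degrades proteoglycans, laminin and fibronectin and activates other proenzymes, had 6802, 6674 and 4853 normalised counts in 4T1 replicates 1, 2 and 3, against 16395, 24442 and 18912 in 4TO7 replicates 1, 2 and 3. Every 4TO7 library exceeded every 4T1 library. The mean was 6109.6 ± 1090.2 in 4T1 cells and 19916 ± 4116 in 4TO7 cells (SD, n = 3 each), 3.26-fold higher in 4TO7, with a log2 fold change of -1.70 ± 0.19 (SE; limma adjusted p = 0.000199). Mmp10, a close relative with a similar range of matrix substrates, had 1076, 700.5 and 1044 normalised counts in 4T1 replicates 1, 2 and 3, against 40.2, 188 and 69.7 in 4TO7 replicates 1, 2 and 3. All 4T1 libraries were higher, and 4TO7 replicate 2 was the highest of its line. The mean was 939.8 ± 208 in 4T1 cells and 99.2 ± 78.0 in 4TO7 cells, 9.48-fold higher in 4T1, with a log2 fold change of 3.50 ± 0.50 (limma adjusted p = 0.00069). Without 4TO7 replicate 2 the Mmp10 fold was 17.1. The longest Mmp3 and Mmp10 transcripts shared 140 of the 1752 and 1673 sequences of 50 bases they contain, so a small part of each transcript gives reads that cannot be assigned to either gene alone.

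Mmp13, the collagenase of the panel, which cleaves fibrillar collagens, had 201, 241 and 512 normalised counts in 4T1 replicates 1, 2 and 3, against 110.4, 75.5 and 141 in 4TO7 replicates 1, 2 and 3. The groups did not overlap, although the gap between the lowest 4T1 and the highest 4TO7 library was smaller than the spread among the 4T1 libraries. The mean was 318 ± 169 in 4T1 cells and 109 ± 33.0 in 4TO7 cells, 2.91-fold higher in 4T1, with a log2 fold change of 1.46 ± 0.39 (limma adjusted p = 0.0146).

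Mmp3, Mmp10 and Mmp13 lie in a cluster of 10 metalloproteinase genes that spans 427.1 kb of chromosome 9 (GRCm38, GENCODE M21). Mmp13 lies at chr9:7272514-7283331, Mmp3 at chr9:7445822-7455975 and Mmp10 at chr9:7502352-7510240, all on the plus strand. In chromosomal order the cluster runs Mmp13, Mmp12, Mmp1b, Mmp3, Mmp1a, Mmp10, Mmp8, Mmp27, Mmp20 and Mmp7. Calls alternated along it: Mmp13 and Mmp10 were higher in 4T1, Mmp3 and Mmp1a between them were higher in 4TO7, and Mmp1b was not called. Mmp3 ends 8.2 kb before Mmp1a, and Mmp1a ends 25.5 kb before Mmp10. The remaining 5 genes did not reach the level for testing, and Mmp8, Mmp20 and Mmp7 had 0 reads in all 6 libraries.

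**Figure D2:**
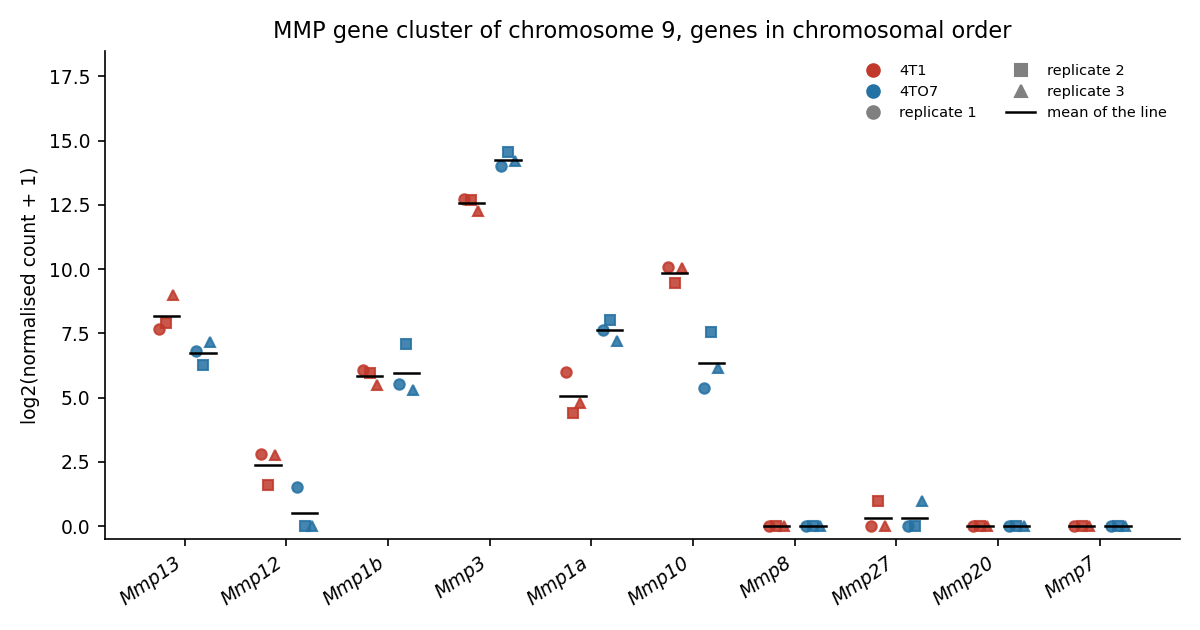
The 10 genes of the chromosome 9 cluster are shown in chromosomal order, with 1 point per library, 4T1 left of 4TO7 and black bars at the mean log2 value of the line. The vertical axis is log2(normalised count + 1). Mmp3 is the highest gene of the cluster in both lines, and of the tested genes Mmp10 (3.50) lies farthest towards 4T1.

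The sequence before the start site is shown for these 3 members, because neighbouring genes with the same promoter motif differed in opposite directions. AP-1, the dimer of Fos and Jun proteins, is a textbook regulator of these promoters and binds TGANTCA, a motif that is searched on both strands at once because it is its own reverse complement apart from the central base. Each line gives the 200 bases before the RefSeq start site (GRCm38.p6, plus strand, 5′ to 3′), with the AP-1 match in capitals. The windows are chr9:7445622-7445821 for Mmp3, chr9:7502142-7502341 for Mmp10 and chr9:7272314-7272513 for Mmp13.
Mmp3: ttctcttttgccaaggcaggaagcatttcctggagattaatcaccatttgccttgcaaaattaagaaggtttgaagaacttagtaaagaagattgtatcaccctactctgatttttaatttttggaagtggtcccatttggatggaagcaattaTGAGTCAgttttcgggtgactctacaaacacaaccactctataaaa
Mmp10: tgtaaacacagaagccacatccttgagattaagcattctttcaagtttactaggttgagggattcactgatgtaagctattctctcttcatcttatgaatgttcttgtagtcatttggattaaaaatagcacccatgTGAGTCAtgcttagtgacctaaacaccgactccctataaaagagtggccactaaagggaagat
Mmp13: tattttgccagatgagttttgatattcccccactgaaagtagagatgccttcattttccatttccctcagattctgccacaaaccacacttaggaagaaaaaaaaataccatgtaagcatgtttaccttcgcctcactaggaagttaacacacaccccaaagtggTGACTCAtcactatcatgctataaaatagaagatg
The AP-1 match lies at -46 to -40 from the start site in Mmp3, at -63 to -57 in Mmp10 and at -35 to -29 in Mmp13. A TATAAA match follows at -7 to -2 in Mmp3, -29 to -24 in Mmp10 and -16 to -11 in Mmp13. These distances rest on the RefSeq start sites, whose placement was not tested, so they may not be comparable between the genes. Mmp3 also holds CAGGAA, the GGAA core bound by ETS factors with a flank, at -184 to -179 and its reverse complement TTCCTG at -174 to -169. Neither flanked form was found in the 250 bases before Mmp10 or Mmp13. The core GGAA alone was not searched for, and it stands in the printed sequences of Mmp10 and Mmp13. Of 32851 promoters in the table, 6.75% held TGANTCA within 250 bases before the start site, 12.37% held TATAAA and 25.71% held CAGGAA, on either strand. Promoters were given for 8 of the 10 members, without Mmp2 and Mmp9. Among them TGANTCA was found in 3, and in 8 of the 10 genes of the cluster. These matches describe sequence and do not measure binding.

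The gelatinases, which cut denatured collagen and basement membrane type IV collagen, also differed in opposite directions. Mmp9 (gelatinase B, chr2:164940780-164955850, plus strand) had 2864, 4280.4 and 5785 normalised counts in 4T1 replicates 1, 2 and 3, against 355, 144 and 461 in 4TO7 replicates 1, 2 and 3. The lowest 4T1 library lay far above the highest 4TO7 library, and 4TO7 replicate 2 was the lowest of all. The mean was 4309.8 ± 1460.4 in 4T1 cells and 319.7 ± 161 in 4TO7 cells, 13.5-fold higher in 4T1, with a log2 fold change of 3.85 ± 0.43 (limma adjusted p = 0.000167). Mmp2 (gelatinase A, chr8:92827291-92853420, plus strand) had 6.05, 3.98 and 1.93 normalised counts in 4T1 replicates 1, 2 and 3, against 68.3, 25.2 and 62.7 in 4TO7 replicates 1, 2 and 3. It was close to absent in 4T1 cells, with 12 reads over 3 libraries, against 160 in 4TO7 cells. The mean was 3.99 ± 2.06 in 4T1 cells and 52.1 ± 23.5 in 4TO7 cells, 13.0-fold higher in 4TO7, with a log2 fold change of -3.38 ± 0.49 (limma adjusted p = 0.000746). Mmp2 reached the level for testing only through the 4TO7 libraries. Neither gelatinase overlaps another annotated gene.

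Of the membrane-type enzymes, neither was called with all libraries. Mmp14, which cleaves pericellular collagen and activates the Mmp2 proenzyme at the cell surface (chr14:54431612-54445364, plus strand), had 5969, 6385 and 6322 normalised counts in 4T1 replicates 1, 2 and 3, against 8047, 5060.0 and 8765 in 4TO7 replicates 1, 2 and 3. The 4TO7 libraries lay on both sides of the 4T1 libraries, with replicate 2 the lowest of all. The mean was 6225 ± 224 in 4T1 cells and 7291 ± 1965 in 4TO7 cells, with a log2 fold change of -0.19 (95% interval -0.66 to 0.28; limma adjusted p = 0.473). Without 4TO7 replicate 2 the log2 fold change was -0.43, with a limma adjusted p of 0.0167, so this library decides whether Mmp14 is called higher in 4TO7. Mmp15, a second membrane-type enzyme (chr8:95352268-95375080, plus strand), had 54.5, 114 and 61.8 normalised counts in 4T1 replicates 1, 2 and 3, against 118, 44.0 and 112 in 4TO7 replicates 1, 2 and 3. The groups overlapped, with 1 library of each line on the side of the other line. Its log2 fold change was -0.20 (95% interval -1.22 to 0.82; limma adjusted p = 0.73), an interval that leaves a change of more than 1 log2 unit towards 4TO7 possible.

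The inhibitors were led by Timp2, which inhibits most metalloproteinases and at low levels bridges the Mmp2 proenzyme to Mmp14. Timp2 (chr11:118301069-118355740, minus strand) had 20383, 22922 and 21596 normalised counts in 4T1 replicates 1, 2 and 3, against 29795, 25468 and 32356 in 4TO7 replicates 1, 2 and 3. The groups did not overlap. The mean was 21634 ± 1269.7 in 4T1 cells and 29206 ± 3481 in 4TO7 cells, 1.35-fold higher in 4TO7, with a log2 fold change of -0.43 ± 0.13 (95% interval -0.73 to -0.12; limma adjusted p = 0.0279). The call was lost when any of 4 single libraries was left out, with limma adjusted p = 0.0641 without 4T1 replicate 1, 0.0794 without 4T1 replicate 3, 0.0966 without 4TO7 replicate 1 and 0.113 without 4TO7 replicate 3. Cep295nl, a gene inside Timp2 on the same strand, had 118, 104.6 and 87.9 normalised counts in 4T1 replicates 1, 2 and 3, against 55.2, 76.5 and 43.8 in 4TO7 replicates 1, 2 and 3, far below the level of Timp2.

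Timp1, which inhibits Mmp9 well and the membrane-type enzymes poorly (chrX:20870166-20874735, plus strand), had 2302, 1759.6 and 1564 normalised counts in 4T1 replicates 1, 2 and 3, against 1640.1, 2678 and 1391 in 4TO7 replicates 1, 2 and 3. The groups overlapped and the highest value belonged to 4TO7 replicate 2. The mean was 1875 ± 383 in 4T1 cells and 1903 ± 682 in 4TO7 cells, with a log2 fold change of 0.02 (95% interval -0.57 to 0.61; limma adjusted p = 0.961). Its direction was not settled, since it turned under several alternatives. Timp1 lies inside Syn1 on the opposite strand, and Syn1 had 11.1, 5.98 and 8.69 normalised counts in 4T1 replicates 1, 2 and 3, against 63.6, 35.6 and 114 in 4TO7 replicates 1, 2 and 3. Timp3, which binds to the matrix and also inhibits ADAM proteases (chr10:86300372-86349506, plus strand), was near the limit of detection, with 0, 1 and 2 reads in 4T1 replicates 1, 2 and 3, against 2, 0 and 3 in 4TO7 replicates 1, 2 and 3. The ratio of reads, scaled for depth, was 0.599 (exact 95% interval 0.0931 to 3.08, counting error only), and 36.3% of its 50-base sequences occur in transcripts of other genes, mostly of Syn3 on the opposite strand.

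**Figure D3:**
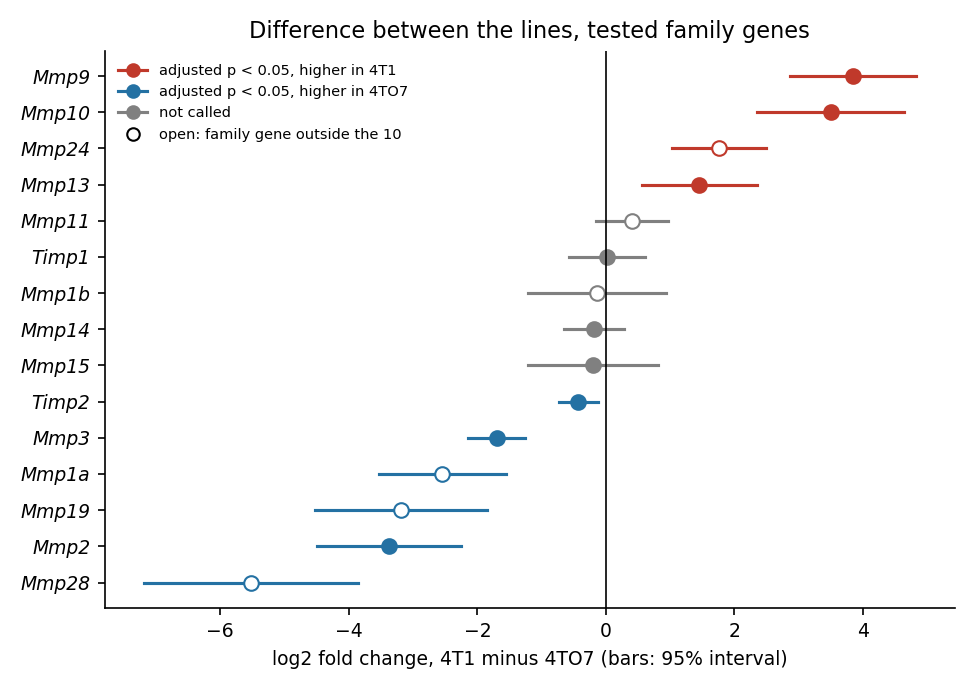
Points are log2 fold changes, 4T1 minus 4TO7, of the tested metalloproteinase and TIMP genes, and bars are 95% intervals. Filled points are members and open points other family genes. Mmp9 (3.85) and Mmp10 (3.50) lie farthest towards 4T1, Mmp28 (-5.53) lies farthest towards 4TO7, and the intervals of Mmp14, Mmp15, Timp1, Mmp11 and Mmp1b cover 0.

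To compare levels between genes, normalised counts were divided by the union exon length in kb. In 4T1 cells the level per kb was highest for Timp2 (5553 ± 326), followed by Mmp3 (3392 ± 605), Timp1 (2112 ± 431), Mmp9 (1218 ± 413) and Mmp14 (1045 ± 37.6). Mmp9 and Mmp14 overlapped between libraries in this line. Mmp10 (546 ± 121 per kb), Mmp13 (119 ± 63.2), Mmp15 (14.2 ± 5.97), Mmp2 (1.18 ± 0.611) and Timp3 (0.12 ± 0.119) followed without overlap. In 4TO7 cells Mmp3 led (11058.5 ± 2286 per kb), ahead of Timp2 (7496 ± 894), Timp1 (2143 ± 768) and Mmp14 (1223 ± 329.7), none of which overlapped its neighbour. Mmp9 (90.3 ± 45.6 per kb), Mmp10 (57.6 ± 45.3) and Mmp13 (40.8 ± 12.3) overlapped in 4TO7 cells, as did Mmp15 (16.9 ± 7.63) and Mmp2 (15.4 ± 6.96), and Timp3 was last (0.199 ± 0.185). With the longest transcript as the length, Mmp14 stood above Mmp9 in 4T1 cells and above Timp1 in 4TO7 cells.

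Over 23 metalloproteinase genes, Mmp3 made up 56.7%, 54.1% and 40.7% of the summed level per kb in 4T1 replicates 1, 2 and 3, against 81.1%, 90.3% and 82.1% in 4TO7 replicates 1, 2 and 3. The share of Mmp9 was 12.2%, 17.7% and 24.7% in the 4T1 libraries, against 0.893%, 0.27% and 1.02% in the 4TO7 libraries. Mmp10 contributed 9.38%, 5.94% and 9.16% in 4T1, against 0.208%, 0.725% and 0.316% in 4TO7. The lines did not overlap in these 3 shares. Mmp14 held 15.0%, 15.6% and 16.0% in 4T1, against 12.0%, 5.65% and 11.5% in 4TO7. Thus Mmp3 had the largest share of any gene in both lines. It dominated 4TO7 libraries, and in 4T1 libraries Mmp14, Mmp9 and Mmp10 stood beside it with larger shares than in 4TO7. The summed metalloproteinase level was 6661, 6847 and 6614 per kb in 4T1 replicates 1, 2 and 3, against 11220.4, 15027 and 12797 in 4TO7 replicates 1, 2 and 3. The summed level of 4 TIMP genes was 7825, 7865 and 7304 per kb in 4T1, against 9495, 9552 and 9872 in 4TO7. The quotient of the sums was 0.851, 0.871 and 0.905 in 4T1 libraries, against 1.18, 1.57 and 1.30 in 4TO7 libraries. With longest transcripts as lengths it was 0.945, 0.973 and 1.02 in 4T1 libraries, against 1.26, 1.59 and 1.37 in 4TO7 libraries, so the position of 4T1 libraries relative to 1 depends on the length used. Shares and sums were described without a test.

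**Figure D4:**
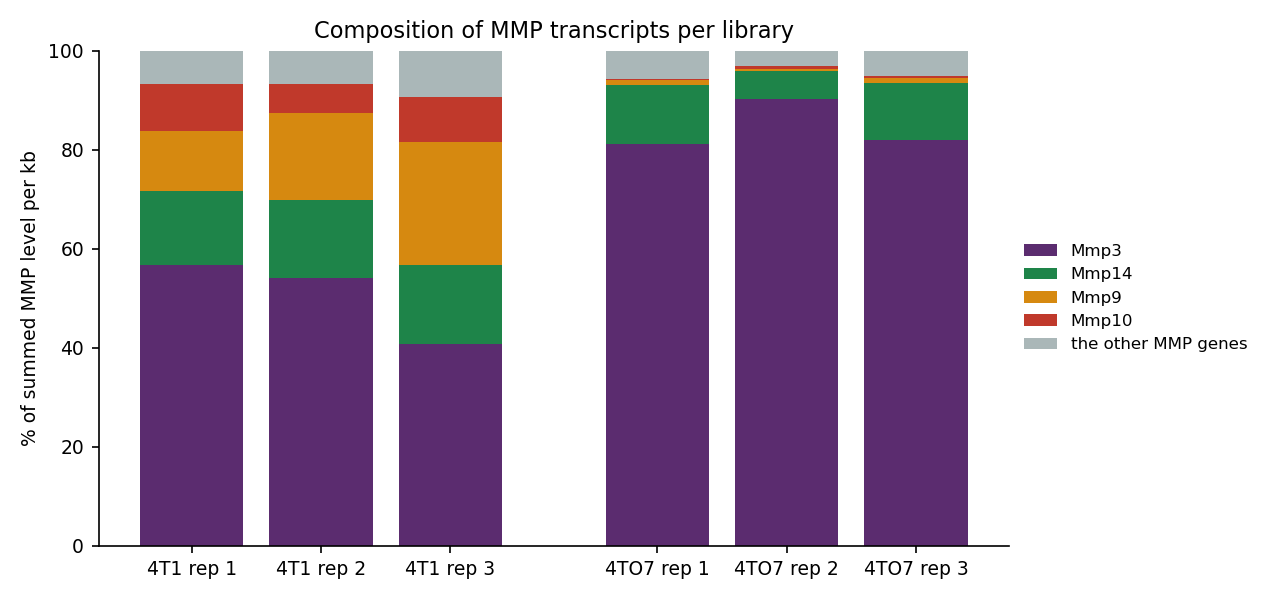
Bars show the share of each gene in the summed metalloproteinase level per kb (%), 1 bar per library, with 4T1 libraries left of 4TO7 libraries. Mmp3 takes 40.7% to 56.7% of the sum in 4T1 libraries and 81.1% to 90.3% in 4TO7 libraries, and the Mmp9 and Mmp10 segments are thin in 4TO7.

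Within a library, enzymes were set against the inhibitors they are known to bind. The ratio of Mmp9 to Timp1 was 1.24, 2.43 and 3.70 in 4T1 replicates 1, 2 and 3, against 0.216, 0.0536 and 0.331 in 4TO7 replicates 1, 2 and 3, a difference of 3.84 in mean log2 ratio. The ratio of Mmp2 to Timp2 was 0.000297, 0.000174 and 8.94e-05 in 4T1, against 0.00229, 0.000988 and 0.00194 in 4TO7, a log2 difference of -3.30. The ratio of Mmp14 to Timp2 was 0.293, 0.279 and 0.293 in 4T1, against 0.270, 0.199 and 0.271 in 4TO7, a log2 difference of 0.24, or 0.09 without 4TO7 replicate 2. The lines did not overlap in any of the 3 ratios. The two-sided exact permutation test gave p = 0.1 for each (adjusted p = 0.1 over the 3), the smallest p that 3 against 3 libraries allow, so none could pass the threshold. These are ratios of normalised counts without length correction, so their size within a line has no absolute meaning, and Mmp14 over Timp3 was not computed because Timp3 was at 0 in 2 libraries.

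The panel's members did not deviate together in 4TO7 replicate 2. On the log2 scale, this library lay above the mean of 4TO7 replicates 1 and 3 by 1.80 for Mmp10, 0.83 for Timp1 and 0.47 for Mmp3. It lay below that mean for Mmp9 (-1.49), Mmp15 (-1.37), Mmp2 (-1.35), Mmp14 (-0.73), Mmp13 (-0.72) and Timp2 (-0.29). Thus 6 tested members lay below both other 4TO7 libraries and 3 above both, beside 43.45% and 40.51% of all tested genes.

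**Figure D5:**
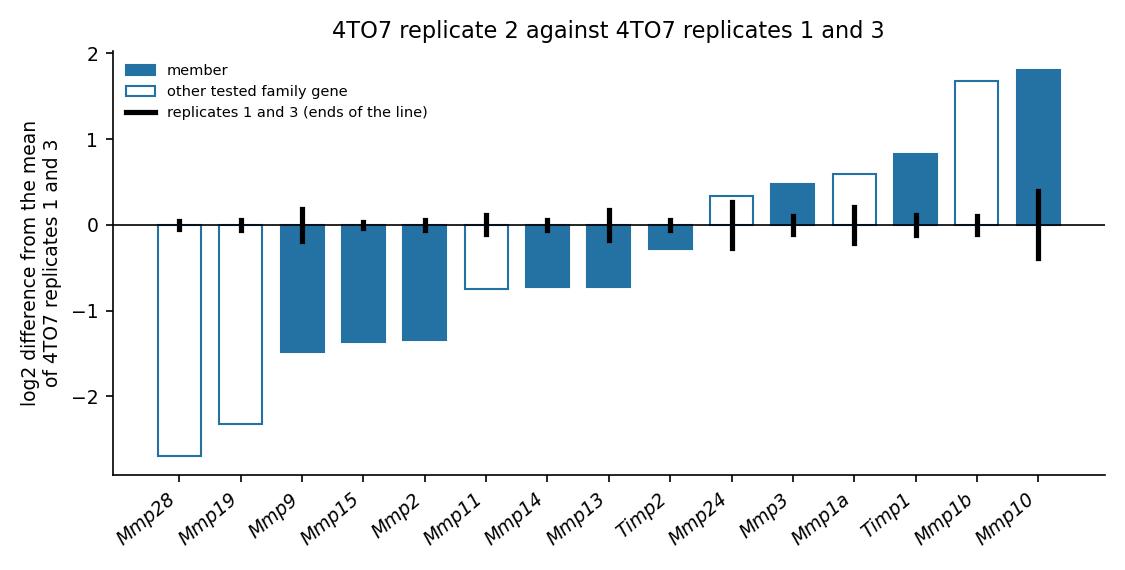
Bars give the log2 difference of 4TO7 replicate 2 from the mean of 4TO7 replicates 1 and 3 for each tested member (filled) and other tested family gene (open), and the ends of the black lines mark replicates 1 and 3. Mmp10 (1.80) is the highest member and Mmp9 (-1.49) the lowest, and among the other family genes Mmp1b (1.67) and Mmp28 (-2.69) mark the ends.

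Among the 17 other metalloproteinase and TIMP genes, 6 reached the level for testing, of which 1 was higher in 4T1, 3 were higher in 4TO7 and 2 were not called. Beside them, 25.1% of all tested genes were higher in 4T1 and 23.9% in 4TO7. Mmp28 (epilysin, a secreted enzyme) had 1.01, 2.99 and 3.86 normalised counts in 4T1 replicates 1, 2 and 3, against 281, 44.0 and 301 in 4TO7 replicates 1, 2 and 3. It was 79.6-fold higher in 4TO7 (log2 fold change -5.53 ± 0.73, limma adjusted p = 0.00044) and reached the level for testing only through that line. Mmp19 had 19.2, 18.9 and 21.2 normalised counts in 4T1, against 336, 63.9 and 311 in 4TO7, 12.0-fold higher in 4TO7 (log2 fold change -3.19 ± 0.58, limma adjusted p = 0.00254). For both genes 4TO7 replicate 2 was the lowest of its line, yet above every 4T1 library. Of the 50-base sequences of Mmp19, 25.41% occur in other genes, mostly Tmem198b on the opposite strand. Mmp28 shares 12.3% of its 50-base sequences with 1700020L24Rik, which overlaps it on the opposite strand. That gene had 6.05, 8.97 and 2.9 normalised counts in 4T1 replicates 1, 2 and 3, against 17.8, 3.14 and 16.9 in 4TO7 replicates 1, 2 and 3. The part of 1700020L24Rik in the Mmp28 reads was not tested.

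Mmp1a, a mouse interstitial collagenase, had 63.6, 19.9 and 27.0 normalised counts in 4T1 replicates 1, 2 and 3, against 197, 257 and 147 in 4TO7 replicates 1, 2 and 3. It was 5.44-fold higher in 4TO7 (log2 fold change -2.55 ± 0.43, limma adjusted p = 0.00174), or 8.54-fold without 4T1 replicate 1. Mmp1b, its near copy, had 66.6, 60.8 and 43.4 normalised counts in 4T1, against 44.9, 135 and 38.8 in 4TO7, with overlapping groups (log2 fold change -0.14, limma adjusted p = 0.819). The copies shared 163 of the 1973 50-base sequences of Mmp1a, and 19.71% of those of Mmp1b occur in other genes, mostly Mmp1a. Reads from the shared parts cannot be assigned to either copy alone, so both values are uncertain. Mmp24, a membrane-type enzyme, had 40.4, 27.9 and 29.9 normalised counts in 4T1, against 6.55, 10.5 and 9.95 in 4TO7, 3.64-fold higher in 4T1 (log2 fold change 1.76 ± 0.32, limma adjusted p = 0.00235). Only 1 of its 4TO7 libraries reached 10 normalised counts, and the stricter filter of 50 removed it. BC029722, which overlaps Mmp24 on the opposite strand and shares 13.81% of its 50-base sequences, had 2139.9, 1790.5 and 1667 normalised counts in 4T1, against 1111, 929 and 1104 in 4TO7. Its part in the Mmp24 reads was not tested. Mmp11, which furin activates inside the cell, had 745, 767 and 986 normalised counts in 4T1, against 686, 442 and 801 in 4TO7, and was not called (log2 fold change 0.40, limma adjusted p = 0.2). Chchd10, which overlaps it on the opposite strand, had 476, 365 and 372 normalised counts in 4T1, against 2.81, 1.05 and 2.99 in 4TO7. Mmp23 was not tested and averaged 2.95 ± 1.63 in 4T1 cells and 19.3 ± 14.9 in 4TO7 cells. Mmp7, Mmp8, Mmp16, Mmp20 and Mmp21 had 0 reads in all libraries, and the other 5 had 2 to 16 reads over all 6 libraries.

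Of 21 listed activators, inhibitors and receptors that act on metalloproteinases, 16 were tested, 8 were higher in 4T1 and 1 in 4TO7 (8 and 3 without 4TO7 replicate 2). Their median log2 fold change was 0.41, also with the gene at 0 in a line set to its bound. Over all tested genes, 25.1% were higher in 4T1 and 23.9% in 4TO7, with a median of 0.03. Hpn, a listed gene that was not tested, had 0 reads in 4T1 cells and 76 in 4TO7 cells. St14 (matriptase, a membrane serine protease) averaged 9581 ± 891 in 4T1 cells and 87.1 ± 24.3 in 4TO7 cells, 110.1-fold higher in 4T1. Its inhibitor Spint1 averaged 4751 ± 324 in 4T1 cells and 1329 ± 16.4 in 4TO7 cells, 3.57-fold higher. Pcsk6, a furin-like convertase that activates proenzymes, averaged 309 ± 56.4 in 4T1 cells and had 0 reads in 4TO7 cells, at least 311-fold higher in 4T1 against a floor of 3 reads over that line, or 201-fold without 4TO7 replicate 1. Thbs1, a matricellular protein that binds metalloproteinases, averaged 18093 ± 4496 in 4T1 cells and 4645 ± 2374 in 4TO7 cells, 3.89-fold higher. The gene higher in 4TO7 was Reck, a membrane-anchored inhibitor of metalloproteinases, with 142 ± 19.3 in 4T1 cells and 696 ± 302 in 4TO7 cells, 4.90-fold higher in 4TO7. Adjusted p-values by limma were 2.3e-07 for Pcsk6, 1.62e-07 for St14, 8.35e-06 for Spint1, 0.00357 for Thbs1 and 0.00122 for Reck. Pcsk6 reached the level for testing only through the 4T1 libraries.

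Of 20 listed matrix substrates, 13 were tested, 7 were higher in 4T1 and 4 in 4TO7 (8 and 4 without 4TO7 replicate 2). Their median log2 fold change was 1.17, also with the gene at 0 in a line set to its bound. Among all tested genes, 25.1% were higher in 4T1 and 23.9% in 4TO7, with a median of 0.03. Lamb3, a chain of an epithelial basement membrane laminin, averaged 5405 ± 1382 in 4T1 cells and had 3 reads in all in 4TO7 cells, a depth-scaled read ratio of 5476 (exact 95% interval 1874 to 26558, counting error only). Without 4TO7 replicate 3 the ratio of the Lamb3 means was 10315, against 5336 with all libraries. Lama3 and Fn1 were also higher in 4T1, and so was Col5a1, a fibril-forming collagen chain, with 1341 ± 218 in 4T1 cells and 213 ± 97.3 in 4TO7 cells (6.30-fold, limma adjusted p = 0.000263). Higher in 4TO7 was Eln, elastin, with 0 reads in 4T1 cells and 661 ± 529.8 in 4TO7 cells, at least 679-fold higher against 3 reads over the 4T1 line (limma adjusted p = 6.17e-05). This limit was 445-fold without 4TO7 replicate 3 and 447-fold without 4T1 replicate 3. Eln reached the level for testing only through the 4TO7 libraries, and Lamb3 only through the 4T1 libraries. Sparc, a collagen-binding matricellular protein, averaged 5275 ± 677 in 4T1 cells and 11502 ± 2924 in 4TO7 cells, 2.18-fold higher in 4TO7 (limma adjusted p = 0.00256). Vcan (2.43-fold) and Hspg2 (1.38-fold), the proteoglycans versican and perlecan, were higher in 4TO7 with all libraries (limma adjusted p = 0.0213 and 0.0388). Vcan lost its call without 4T1 replicate 1 (0.0633), 4T1 replicate 2 (0.0742), 4TO7 replicate 1 (0.0501) or 4TO7 replicate 3 (0.0853), and Hspg2 without 4T1 replicate 1 (0.104), 2 (0.0544) or 3 (0.0822) or 4TO7 replicate 3 (0.146).

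Of 28 listed transcription factors that act on metalloproteinase promoters, 27 were tested, 10 were higher in 4T1 and 6 in 4TO7 (11 and 8 without 4TO7 replicate 2). Their median log2 fold change was 0.22. All tested genes had 25.1% higher in 4T1 and 23.9% higher in 4TO7. Among the AP-1 components, whose motif stands in the promoters printed above, Junb averaged 9181 ± 1002 in 4T1 cells and 1729 ± 653 in 4TO7 cells, 5.31-fold higher in 4T1 (limma adjusted p = 9.15e-05). Jund averaged 13821 ± 1497 in 4T1 cells and 2796 ± 441 in 4TO7 cells, 4.94-fold higher in 4T1 (limma adjusted p = 1.07e-05). In the other direction, Fosb averaged 426 ± 86.7 in 4T1 cells and 691 ± 35.4 in 4TO7 cells, 1.62-fold higher in 4TO7 (limma adjusted p = 0.0152, and 0.0515 without 4T1 replicate 3, which ends the call). Fos, Fosl1, Fosl2 and Jun were not called with all libraries (limma adjusted p = 0.0586 to 0.513). Without 4TO7 replicate 2, Fosl1 was called higher in 4T1 (log2 fold change 0.78, limma adjusted p = 0.0154). Among the ETS factors, Ets2 averaged 3534 ± 386 in 4T1 cells and 365 ± 2.48 in 4TO7 cells, 9.68-fold higher in 4T1. Ets1 averaged 13151 ± 2481 in 4T1 cells and 3915 ± 370.2 in 4TO7 cells, 3.36-fold higher in 4T1. By contrast Etv5 averaged 2705 ± 421 in 4T1 cells and 12037 ± 4074 in 4TO7 cells, 4.45-fold higher in 4TO7, and Etv1 was 2.96-fold higher in 4TO7. Adjusted p-values by limma were 7.5e-07 for Ets2, 6.53e-05 for Ets1, 0.00037 for Etv5 and 0.00098 for Etv1. Twist1 was also higher in 4T1 (limma adjusted p = 2.59e-07), and Zeb2, Cebpb (1.86-fold) and Snai1 (1.74-fold) were higher in 4TO7 (limma adjusted p = 0.000312, 0.0118 and 0.0123). Of these, Twist1 had 1 read over the 4TO7 libraries and reached the level for testing only through 4T1. Whether these factors act on the members was not tested.

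Metalloproteinases are also made by stromal and blood cells, and markers of such cells were read in the same libraries. The 7 macrophage and leukocyte markers summed to 656 to 974 normalised counts in 4T1 libraries and 291 to 415 in 4TO7 libraries, and the 3 tested (Csf1r, Cd68 and Cd14) were higher in 4T1. The defining markers were at or near 0: Adgre1 had 0 reads in all libraries, and Ptprc averaged 3.94 ± 1.67 in 4T1 cells and 0.312 ± 0.540 in 4TO7 cells. Of 4 neutrophil markers, which summed to 4.98 to 10.1 in 4T1 libraries and 13.1 to 40.8 in 4TO7 libraries, Ly6g and S100a9 had 0 reads throughout, and S100a8, the one that was tested, was higher in 4TO7. S100a8 averaged 6.94 ± 2.06 in 4T1 cells and 29.8 ± 14.7 in 4TO7 cells (4.30-fold, limma adjusted p = 0.0115). S100a8 reached the level for testing only through the 4TO7 libraries, and Csf1r only through the 4T1 libraries. The 8 fibroblast markers summed to 592 to 1375 in 4T1 libraries and 1722 to 7526 in 4TO7 libraries, nearly all from Pdgfra. Both tested genes (Pdgfra and Pdgfrb) were called higher in 4TO7. Pdgfrb was low (6.52 ± 5.24 in 4T1 cells, 25.1 ± 13.8 in 4TO7 cells), its groups overlapped, and 11 of 15 alternatives called it. Of the untested markers, Col1a1 was higher in 4T1 (10.2 ± 2.04, against 4.19 ± 2.83 in 4TO7) and Dcn in 4TO7 (15.3 ± 11.9, against 1.97 ± 0.951 in 4T1). Col3a1 and Lum, defining fibroblast matrix genes, had 0 reads in all libraries. The 5 endothelial markers summed to 12.5 to 20.2 in 4T1 libraries and 15.7 to 65.7 in 4TO7 libraries, and 0 of them reached the level for testing. Beside these few marker calls, 25.1% of all tested genes were called higher in 4T1 and 23.9% in 4TO7. The part of Pdgfra-expressing or Cd68-expressing cells in the members' levels was not tested.

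For the called member with the widest change towards each line, the genes with the most similar pattern over the 6 libraries were read by Pearson correlation of log2 values. They were Rnf144b (0.9991), Smpd5 (0.9985) and Esr1 (0.9984) for Mmp9, and Cemip (0.9986), Gm37584 (0.9975) and Glipr1 (0.9971) for Mmp2. Such values are common here, since 892 tested genes exceeded 0.95 for Mmp9 and 904 for Mmp2, and the 6 points fall into the 2 lines.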

How the data were processed

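Values in the deposited table are a normalised signal: per the file headers they are normalised counts, and the values show that each library's gene counts were divided by its own size factor. STAR 2.5, featureCounts 1.5, DESeq2 and the build GRCm38 are named in the submitters' processing notes; the annotation release and the use of strand are not given in the sources used here. Every value (100%) was a whole number of reads within 1e-06 once divided by its library's step, so reads were recovered. Size factors ran from 0.954 to 1.07 and depth from 33605566 to 39072639 reads. Counting error alone is covered by the exact intervals of read ratios and by the floor of 3 reads. The intervals of log2 fold changes come from the limma fit and rest on the spread between libraries.

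The values were tested as log2(value + 1) with limma 3.58.1 in R 4.3.3 (group alone, intensity trend, robust), two-sided, over 14276 genes with at least 10 in at least 3 libraries, with Benjamini-Hochberg adjustment at 0.05. edgeR 4.0.16 and DESeq2 1.42.0 on the recovered reads, other pseudocounts (0.5 and 5), filters and scalings, a replicate block and leaving out each library were alternatives. The steps were tested on simulated data. Positions and lengths came from GENCODE M21, start-site sequences from RefSeq (GRCm38.p6).

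The members and lists were chosen with earlier results of these data known. Named are all members, other family genes with a mean of at least 10 in either line, up to 5 genes per list and direction with the largest fold among those called, genes overlapping a member, and the 3 genes most like the called member with the largest change towards each line. Other genes were named after their values were seen. Some genes that this rule names are not reported here.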

Additional observations from a re-analysis of the deposited data

How the results depend on the processing

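Mmp3, Mmp9, Mmp10 and Mmp13 kept their direction and call under all 16 alternatives and Mmp2 under the 15 that gave it a value; the stricter filter of 50 removed it. The log2 fold change of Timp1 turned to -0.057 with edgeR, -0.034 with DESeq2, -0.11 with equal totals and -0.019 with TMM scaling, and leaving out 1 library gave -0.18 to 0.29. For Mmp15 this range was -0.66 to 0.043, for Mmp14 -0.433 to -0.036, for Timp2 -0.52 to -0.35 and for Mmp1b -0.471 to 0.416, turning without 4T1 replicate 3 (0.039) or 4TO7 replicate 2 (0.416). Timp2 lost its call without trend and robust settings (-0.43, limma adjusted p = 0.0588). Equal totals moved the median of all genes to -0.10, against 0.03, and the balance of calls turned to 2967 higher in 4T1 and 4061 in 4TO7, as with TMM (3367 and 3614), edgeR (3336 and 3638), DESeq2 (3641 and 3665) and no filter (3894 and 4004). Leaving out 1 library gave 2751 to 4162 genes higher in 4T1 and 2491 to 3902 higher in 4TO7, and 2 to 4 members higher in 4TO7. Other family genes higher in 4T1 numbered 3 without a filter and 0 with the stricter filter, against 1. Activators higher in 4TO7 numbered 2 with edgeR, DESeq2, equal totals, TMM and the replicate block, 3 without a filter, and 1 to 3 with a library left out, against 1; matrix substrates higher in 4TO7 numbered 2 to 4 with a library left out and 5 without a filter, against 4. Log2 differences of the ratios were 3.06 to 4.38, -3.72 to -2.85 and 0.09 to 0.31 for Mmp9 over Timp1, Mmp2 over Timp2 and Mmp14 over Timp2. A replicate block gave 3990 and 3760 genes and changed no member's call. Deviations of same-numbered libraries correlated at -0.01, 0.27 and 0.33. 4T1 replicates 2 and 3 correlated best with the 4TO7 library of the same number, but 4T1 replicate 1 correlated best with 4TO7 replicate 2 (0.108). These few libraries cannot decide whether the numbers pair the samples. With longest transcripts, chosen after seeing the data, the Mmp14 share averaged 24.7% in 4T1 and 16.3% in 4TO7, Mmp3 77.8% in 4TO7, and the summed quotient 0.98 in 4T1. Causes were not tested.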
